A study of Mus musculus with 46 samples.

Results

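The genes described here are 8 markers of dendritic cells, Wdfy4, Ccr7, Xcr1, Clec9a, Batf3, Flt3, Itgax and Zbtb46, in bulk RNA of mouse B16F10 melanoma tumors. They were chosen by name as known dendritic cell genes, and all 8 were found among the 24537 genes of the tumor table. The series holds 46 samples. The 4 tumor samples were 2 sgArid1a and 2 sgScramble tumors, taken on day 15 after subcutaneous injection of B16F10 cells carrying a guide RNA against Arid1a, which encodes a part of the SWI/SNF complex that moves nucleosomes, or a scrambled guide. The host mice and the number of clones behind each guide were not given in the sources used here. Cultured B16F10 cells served as the background without other cell types, in 30 libraries from 5 tables. These were untreated sgArid1a, sgArid1a/sgCgas, sgArid1a/sgSting and sgScramble cells, sgArid1a cells with anti-IFNAR antibody for 72 hours, sgArid1a cells with ruxolitinib for 72 hours, sgArid1a and sgScramble cells with the vehicle DMSO for 72 hours, cells of both guides labelled PBS or 24 hours of murine interferon gamma, and sgScramble cells with BD98, BD98 plus anti-IFNAR, or DMSO for 72 hours. Anti-IFNAR blocks the type I interferon receptor, and ruxolitinib inhibits the JAK kinases that it signals through. Cultures of another mouse tumor line, MC38 from colon carcinoma, carried sgArid1a or sgScramble. Fibroblasts grown from mouse embryos (MEFs) were taken on day 5. They were either tamoxifen-treated and Arid1a -/-, or ethanol-treated and Arid1a fl/fl, the latter called WT. The MC38 and MEF values were read without a test. Every group had 2 libraries. The labels do not say that the 2 came from separate mice or cultures, so p-values measure the spread between libraries, which may be technical.

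Dendritic cells take up antigen in tissues, carry it to lymph nodes and present it to T cells. The conventional type cDC1 is known in tumors for cross-presentation, the display of engulfed tumor protein to CD8 T cells. Its development needs the transcription factors Batf3 and Irf8, and the growth factor Flt3l acting through the receptor Flt3 sustains all conventional dendritic cells. Mature dendritic cells switch on Ccr7, which guides them to lymph nodes.

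The windows around transcription start sites, 250 bases before to 50 after, were available for 7 of the 8 genes from RefSeq (GRCm38.p6); Ccr7 was the other gene. Counts of CG dinucleotides in these windows ranged widely, against a median of 7 in 32851 mouse windows. Batf3 had 34, more than 92.3% of the windows, and Flt3 had 18, more than 70.3%. Xcr1 had 6, Itgax and Wdfy4 had 5 each, and Clec9a and Zbtb46 had 1 each. The Zbtb46 window lies inside the gene as the tumor table places it, so it is not the start of the counted transcript. The windows of Batf3 (chr1:191098164-191098463, plus strand), Wdfy4 (chr14:33185017-33185316, minus strand), Itgax (chr7:128129300-128129599, plus strand) and Clec9a (chr6:129408612-129408911, plus strand) follow, to set a gene that cultured B16F10 cells express (Batf3) beside 3 with 0 counts in them, with each CG in capitals.
Batf3: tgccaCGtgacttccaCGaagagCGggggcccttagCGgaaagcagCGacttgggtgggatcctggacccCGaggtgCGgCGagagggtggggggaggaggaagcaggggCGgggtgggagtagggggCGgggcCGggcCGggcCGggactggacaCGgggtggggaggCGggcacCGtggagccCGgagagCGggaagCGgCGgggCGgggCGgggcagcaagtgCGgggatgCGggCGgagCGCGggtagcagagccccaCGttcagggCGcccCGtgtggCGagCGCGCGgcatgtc
Wdfy4: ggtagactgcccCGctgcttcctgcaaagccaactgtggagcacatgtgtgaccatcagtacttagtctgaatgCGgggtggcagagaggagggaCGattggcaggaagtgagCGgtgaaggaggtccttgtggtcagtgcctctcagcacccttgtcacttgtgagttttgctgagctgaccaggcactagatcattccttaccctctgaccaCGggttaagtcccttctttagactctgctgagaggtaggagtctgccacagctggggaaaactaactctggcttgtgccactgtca
Itgax: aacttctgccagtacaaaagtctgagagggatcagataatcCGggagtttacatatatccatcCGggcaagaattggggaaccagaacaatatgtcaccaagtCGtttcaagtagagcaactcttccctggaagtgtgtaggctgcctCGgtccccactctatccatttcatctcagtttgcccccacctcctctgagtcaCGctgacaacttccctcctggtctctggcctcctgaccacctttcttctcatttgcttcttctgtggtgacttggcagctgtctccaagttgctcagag
Clec9a: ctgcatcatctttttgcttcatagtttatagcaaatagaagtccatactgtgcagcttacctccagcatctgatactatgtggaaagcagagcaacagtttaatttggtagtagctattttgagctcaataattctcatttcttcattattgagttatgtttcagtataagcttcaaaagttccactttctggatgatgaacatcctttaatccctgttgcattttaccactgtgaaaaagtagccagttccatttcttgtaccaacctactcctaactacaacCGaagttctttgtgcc
On both strands, the GC box GGGCGG occurred 5 times in the Batf3 window and in none of the other 6 windows, while 35.66% of all windows hold it. The AP-1 motif TGANTCA occurred once each in the Itgax and Zbtb46 windows, against 7.81% of all windows. No match was found in the 7 windows to the PU.1 core GAGGAAGT, held by 3.2% of all windows, to the composite of ETS and IRF factors (GGAA, any 2 bases, GAAA), held by 2.72%, or to the interferon response motif (GAAA, any 2 bases, GAAA), held by 3.44%. The composite and the interferon motif can overlap each other. A match or its lack describes these letters only.

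Tumor libraries had 31.6 M to 38.8 M reads. Arid1a RNA had log2 values of 11.24 and 11.41 in sgArid1a tumors, against 11.71 and 11.57 in sgScramble tumors, a difference of -0.32 ± 0.07 (SE; limma, adjusted p = 0.00307). Values are the normalized log2 values deposited by the authors, which draw low values together, so that fold changes of low genes are understated. limma was fitted over the 13895 genes whose log2 values averaged at least 4, and a call needs an adjusted p below 0.05. It was made for 26.0% of tested genes as higher in sgArid1a tumors and for 28.1% as lower. In bulk RNA, more dendritic cells and more marker RNA per cell cannot be told apart.

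Of the 8 markers, 6 were higher in sgArid1a tumors and 0 were lower. The 6 were Wdfy4, Ccr7, Itgax, Flt3, Clec9a and Xcr1, with log2 fold changes of 0.27 to 0.85. Batf3 and Zbtb46, both transcription factors, did not pass the test. At an unadjusted limma p under 0.05, 7 were higher, against 28.3% of all genes tested, and 0 were lower, against 31.0%. None of the 8 was called lower in the authors' deposited table, against 23.4% of the genes tested here. The median log2 fold change of the 8 markers was 0.43, against -0.02 over all genes tested.

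**Figure D1:**
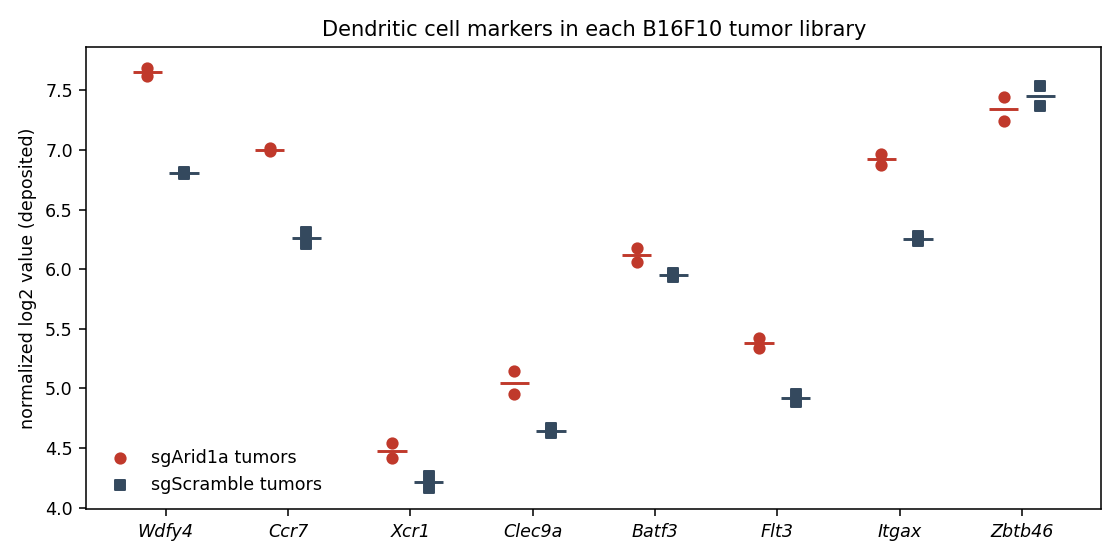
Deposited log2 value (vertical axis, starting at 4.0) of each marker in the 2 sgArid1a tumors (red circles, left) and the 2 sgScramble tumors (dark squares, right), with lines at the group means of 2 libraries. The groups are apart for 7 genes and overlap for Zbtb46, which had 7.25 and 7.44 in sgArid1a tumors, against 7.37 and 7.53 in sgScramble tumors.

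Among the genes that act in antigen uptake and presentation, Wdfy4, which cDC1 need to cross-present antigen carried by other cells, had the largest difference of the 8. Its log2 values were 7.62 and 7.68 in sgArid1a tumors, against 6.81 and 6.80 in sgScramble tumors. Both sgArid1a values lay above both sgScramble values, and the log2 fold change was 0.85 ± 0.07 (SE; limma, adjusted p = 1.02e-06). Clec9a encodes DNGR-1, a receptor on cDC1 that binds actin exposed by dead cells. It had 5.14 and 4.95 in sgArid1a tumors, against 4.62 and 4.67 in sgScramble tumors, with no overlap and a log2 fold change of 0.40 ± 0.07 (SE; limma, adjusted p = 0.000277). The 2 sgArid1a values of Clec9a were 0.188 apart, the 2 sgScramble values 0.0473. Itgax encodes CD11c, an integrin subunit on dendritic cells that many mouse macrophages also carry. Its values were 6.87 and 6.97 in sgArid1a tumors, against 6.23 and 6.28 in sgScramble tumors, and the groups were apart by a log2 fold change of 0.66 ± 0.07 (SE; limma, adjusted p = 6.98e-06).

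Among the receptors for chemokines and growth factors, Ccr7 had log2 values of 6.99 and 7.01 in sgArid1a tumors, against 6.31 and 6.21 in sgScramble tumors. Its groups did not overlap, with a log2 fold change of 0.74 ± 0.07 (SE; limma, adjusted p = 2.97e-06). Ccr7 is also made by naive and memory T cells. Flt3 had 5.43 and 5.34 in sgArid1a tumors, against 4.96 and 4.89 in sgScramble tumors, a log2 fold change of 0.46 ± 0.06 (SE; limma, adjusted p = 4.22e-05). Xcr1, the receptor of cDC1 for the chemokine Xcl1 from T and NK cells, was the lowest of the 8 markers. It had 4.42 and 4.54 in sgArid1a tumors, against 4.16 and 4.26 in sgScramble tumors, a log2 fold change of 0.27 ± 0.06 (SE; limma, adjusted p = 0.00233). Flt3 and Xcr1 were each higher in both sgArid1a libraries than in both sgScramble libraries.

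Neither transcription factor passed the test. Batf3, an AP-1 family factor that cDC1 need to develop, had 6.06 and 6.18 in sgArid1a tumors, against 5.97 and 5.94 in sgScramble tumors. The groups did not overlap, but the log2 fold change of 0.16 ± 0.07 missed the threshold (SE; limma, adjusted p = 0.0546). With it, 7 of the 8 markers had both sgArid1a values above both sgScramble values, against 36.2% of all genes tested. Zbtb46 encodes a zinc finger factor of conventional dendritic cells that endothelial cells also make, and its groups overlapped. Its log2 fold change was -0.10 ± 0.09 (SE; limma, adjusted p = 0.331). Whether the difference of Batf3 or Zbtb46 itself differs from that of a receptor was not tested.

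The authors' deposited table gives larger fold changes for the 6 markers. In the authors' deposited table, 6 of the 8 markers were higher in sgArid1a tumors at an adjusted p under 0.05, against 21.1% of the genes tested here, and they were the 6 named above. The authors' deposited table has log2 fold changes of 2.16 for Flt3 and 2.05 for Clec9a, or 4.46-fold and 4.15-fold. For Xcr1, Ccr7, Wdfy4 and Itgax, the authors' deposited table has 3.19-fold, 3.08-fold, 2.87-fold and 2.79-fold. In the authors' deposited table, the adjusted p was largest among the 6 for Xcr1, at 0.0162. The authors' deposited table has 1.36-fold for Batf3 (adjusted p = 0.3) and 0.885-fold for Zbtb46 (adjusted p = 0.587). The order of the markers by fold thus depends on the scale: Wdfy4 leads on the deposited log2 values and Flt3 in the authors' deposited table.

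**Figure D2:**
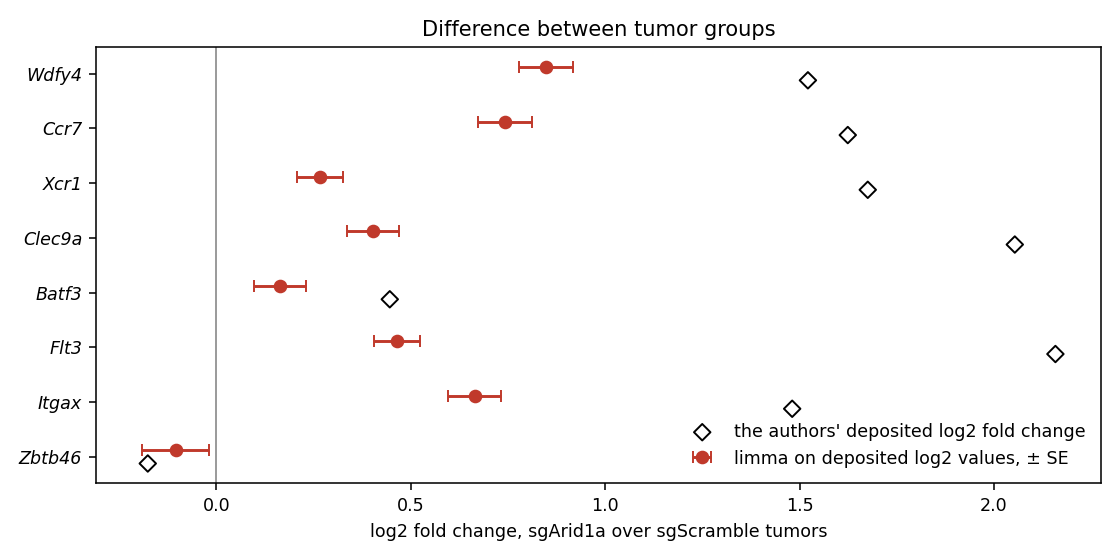
Log2 fold change of each marker, sgArid1a over sgScramble tumors (horizontal axis), from limma on the deposited log2 values (filled circles, bars are ± SE, 2 libraries a group) and from the authors' deposited table (open diamonds, no error drawn). Flt3 lies at 0.46 by limma and at 2.16 in the authors' deposited table.

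On the per length scale, which divides each tumor value by transcript length (log2 per kilobase), the markers could be ordered by level. The drawing together of low values remains on this scale, so gaps between low and high genes are approximate. Levels of Batf3 and Zbtb46 can include RNA of the melanoma cells, which express both in culture. In sgArid1a tumors Batf3 was highest with a mean of 6.62, followed by Ccr7 at 6.02 and Zbtb46 at 5.98. Ccr7 had 6.01 and 6.04 per kilobase and Zbtb46 had 5.88 and 6.08 in these 2 libraries, so the 2 genes did not differ beyond their spread. Itgax at 4.92 and Wdfy4 at 4.39 came next, then Flt3 at 3.52, Clec9a at 3.33 and Xcr1 at 2.32. In sgScramble tumors the means per kilobase were 6.45 for Batf3, 6.09 for Zbtb46 and 5.28 for Ccr7. There, Zbtb46 stood above Ccr7 in both libraries.

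In cultured B16F10 cells the 8 markers fell into 2 kinds. Wdfy4, Ccr7, Xcr1, Clec9a, Flt3 and Itgax were listed at 0 or below 0 on the log2 scale in all 24 libraries of the 4 log2 tables. In the untreated table all 6 were listed at 0 in all 8 libraries. In the 6 libraries with raw counts, none of the 6 genes had more than 1 count. Wdfy4, Clec9a, Flt3 and Itgax had 0 counts in each, which allows up to 3 counts, or 0.127 to 0.23 CPM, the count scaled to a common library total. These limits cover counting error only. Ccr7 had 1 count in a DMSO library and in a BD98 plus anti-IFNAR library, and Xcr1 had 1 count in a BD98 library and in a BD98 plus anti-IFNAR library.

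Batf3 and Zbtb46 had reads in every cultured B16F10 library. With DMSO, Batf3 had 20 and 13 counts and Zbtb46 had 120 and 68 counts. So the 6 markers higher in sgArid1a tumors were those that cultured melanoma cells lack, and the other 2 were those that these cells express. The count has to be read against other genes that cultured B16F10 cells lack. Of the 812 genes tested in tumors with at most 1 count in each of the 2 DMSO cultures, 61.8% were higher in sgArid1a tumors and 8.87% were lower. That class of genes was defined after the values had been seen. Its median log2 fold change was 0.28, and that of the other 13083 tested genes was -0.03. On the scale of the authors' deposited table, the medians were 1.57 for the 8 markers and 0.74 for the 812 genes.

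**Figure D3:**
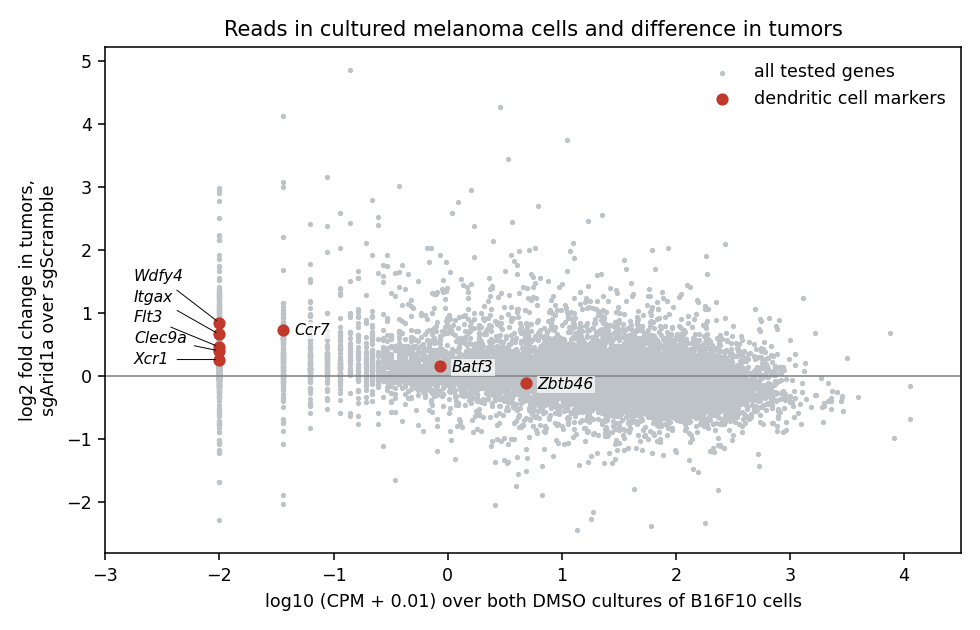
Log2 fold change in tumors, sgArid1a over sgScramble (vertical axis), against log10 of CPM plus 0.01 over the 2 DMSO cultures (horizontal axis), for all 13895 tested genes (grey) and the 8 markers (red). Of the markers, 5 lie at the left edge with 0 counts and Ccr7 has 1 count, while Batf3 and Zbtb46 lie further right, near a fold change of 0.

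The effect of sgArid1a on Batf3 and Zbtb46 was also read in cultures of the melanoma cells alone. In the DMSO cultures, Batf3 had log2 values of 4.32 and 4.28 in sgArid1a cells, against 4.33 and 4.38 in sgScramble cells, a difference of -0.055 ± 0.04 (SE; limma, adjusted p = 0.449). Zbtb46 had 5.91 and 5.82 in sgArid1a cells, against 6.04 and 6.02 in sgScramble cells, a difference of -0.17 ± 0.06 (SE; limma, adjusted p = 0.143). Both genes were lower in both sgArid1a cultures, and neither passed the test, which called 7.88% of genes in either direction. The share of all genes so separated in the DMSO cultures was not counted. Such a separation was common in tumors, where 36.2% of all genes tested had both sgArid1a values above both sgScramble values. In the DMSO cultures the unadjusted limma p was 0.0242 for Zbtb46 and 0.202 for Batf3. In untreated cultures Zbtb46 had 5.51 and 5.55 in sgArid1a cells, against 5.49 and 5.51 in sgScramble cells, a difference of 0.03 ± 0.10 (SE; limma, adjusted p = 0.878). There 11.8% of genes were called in either direction. Batf3 had 3.99 and 3.97 in untreated sgArid1a cells, against 3.83 and 3.95 in sgScramble cells, and was below the level needed for the test. Untreated cells with both guides had 4.09 and 4.07 for Batf3 with sgArid1a/sgCgas, and 3.97 and 3.75 with sgArid1a/sgSting. With anti-IFNAR, Batf3 had 4.12 and 4.20 in sgArid1a cells, and with ruxolitinib 4.27 and 4.29, each compared with no group by a test. Across these 3 tables Batf3 stayed within 3.75 to 4.38 and Zbtb46 within 5.49 to 6.04, with each table normalized separately. The untreated and anti-IFNAR tables share 4 libraries.

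In sgScramble cells BD98 was accompanied by more Batf3 RNA. Batf3 had 51 and 29 counts with BD98, 41 and 67 counts with BD98 plus anti-IFNAR, and 20 and 13 counts with DMSO. In CPM these were 3.91 and 2.08 with BD98, 2.44 and 3.17 with BD98 plus anti-IFNAR, and 0.846 and 0.866 with DMSO, with no overlap of either treatment with DMSO. The log2 fold change against DMSO was 1.67 ± 0.38 with BD98 (SE; edgeR, adjusted p = 0.000661), or 3.19-fold, and 1.58 ± 0.37 with BD98 plus anti-IFNAR (SE; edgeR, adjusted p = 0.000829). The 2 comparisons share their DMSO libraries. Zbtb46 had 8.58 and 6.24 CPM with BD98, 8.92 and 9.12 CPM with BD98 plus anti-IFNAR, and 5.07 and 4.53 CPM with DMSO. Its log2 fold change was 0.49 ± 0.20 with BD98 (SE; edgeR, adjusted p = 0.0408) and 0.77 ± 0.18 with BD98 plus anti-IFNAR (SE; edgeR, adjusted p = 0.00121). The first of these calls was lost with about the same log2 fold change with DESeq2 (0.50, adjusted p = 0.134) and, by edgeR, without DMSO replicate 1 (0.58, adjusted p = 0.0809) or DMSO replicate 2 (0.42, adjusted p = 0.167). Without BD98 replicate 1 the log2 fold change itself was smaller, at 0.24 (edgeR, adjusted p = 0.414). These treatments moved a large part of all genes: edgeR called 49.9% in either direction with BD98 and 48.2% with BD98 plus anti-IFNAR.

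In the table of PBS and interferon gamma, the libraries labelled sgArid1a had high interferon-response genes under both treatments, and those labelled sgScramble had low ones under both. Irf1, an interferon-induced transcription factor, had 12.53 and 12.34 in the libraries labelled sgArid1a with PBS, 10.13 and 10.07 in those labelled sgScramble with interferon gamma, and 9.81 and 9.81 in those labelled sgScramble with PBS. Arid1a RNA did not separate by the guide label: it lay within 11.997 to 12.15 in the 4 libraries labelled interferon gamma and within 12.25 to 12.42 in the 4 labelled PBS, whichever guide was named. The guide and treatment labels of this table may therefore be exchanged for some libraries, which was not tested, and they were not used for a test. Batf3 lay within 6.36 to 6.51 in its 8 libraries. Zbtb46 lay within 7.05 to 7.09 in the 4 libraries labelled interferon gamma and within 7.27 to 7.37 in the 4 labelled PBS, without overlap, and with these labels treatment and guide cannot be told apart there.

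**Figure D4:**
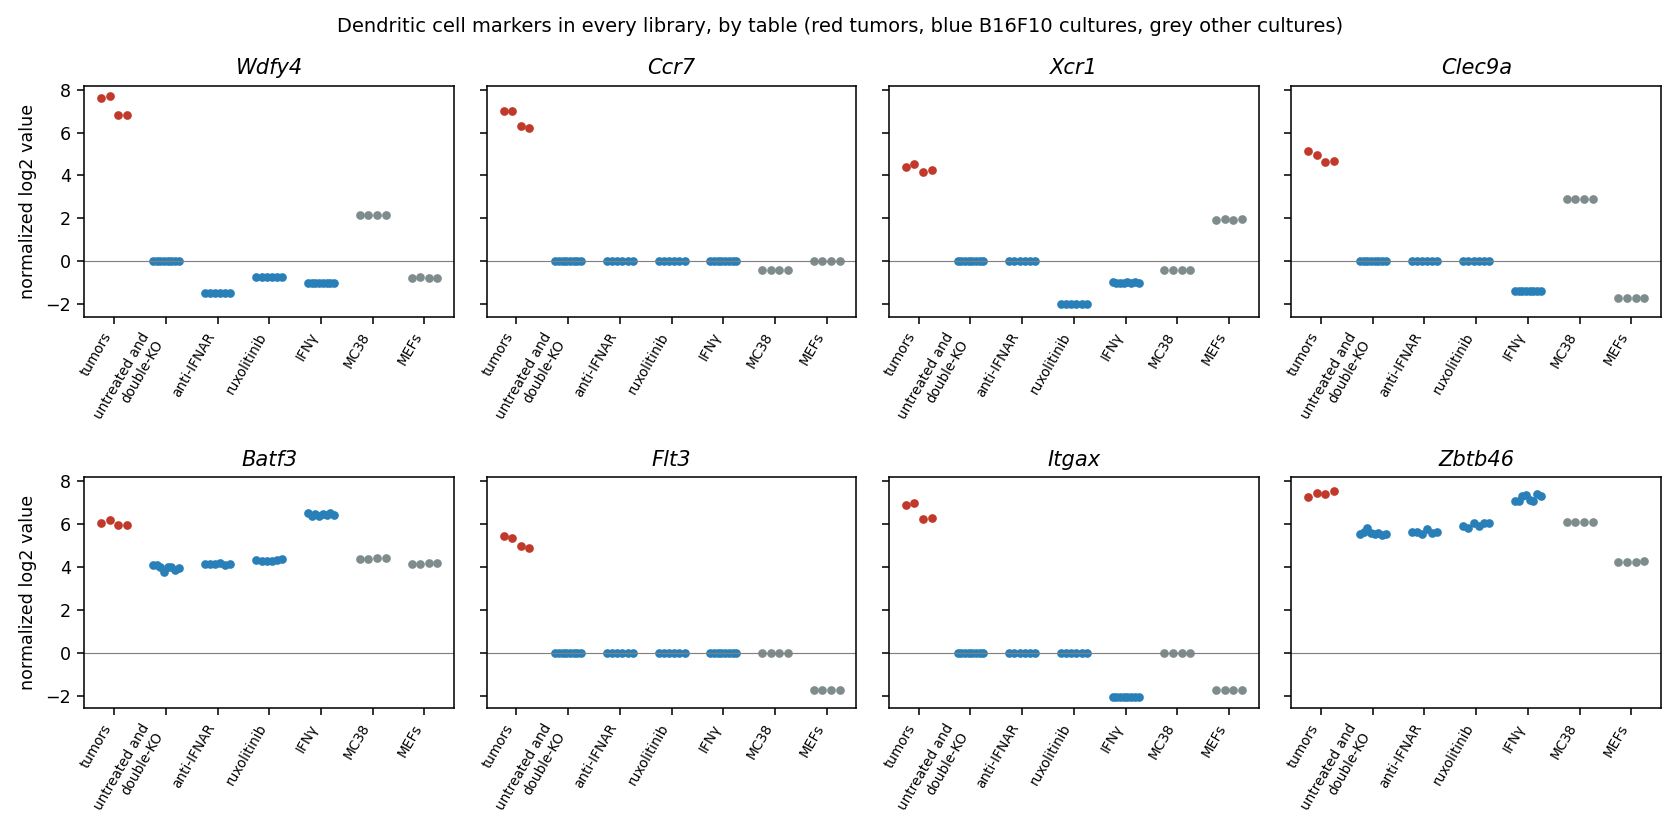
Deposited log2 value (vertical axis) of each marker in every library of the tumors (red), the 4 B16F10 culture tables (blue) and the MC38 and MEF cultures (grey), with each table normalized separately and a grey line at 0. Wdfy4, Ccr7, Xcr1, Clec9a, Flt3 and Itgax lie at or below 0 in all blue libraries and above 4 in all tumors, while Batf3 and Zbtb46 lie above 3.7 in every library.

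Other genes of the dendritic cell programme were read from lists of known genes. Of 11 further cDC1 genes, 8 could be tested, and 8 were higher in sgArid1a tumors, with a median log2 fold change of 0.44. Irf8, which with Batf3 sets up cDC1 and is also made by macrophages, had 9.17 and 9.17 in sgArid1a tumors, against 7.99 and 7.98 in sgScramble tumors, a log2 fold change of 1.19 ± 0.07 (SE; limma, adjusted p = 6.22e-08). Tlr3, a sensor of double-stranded RNA, rose by 0.51 and the lysosomal enzyme Naaa by 0.65 on the log2 scale. Of these 8 genes, 7 had more than 1 count in a DMSO culture of B16F10 cells, Irf8 being the exception. Of 6 tested genes of the other conventional type, cDC2, 5 were higher, among them the lectins Clec10a (0.87), Mgl2 (0.63) and Cd209d (0.42), and Sirpa, which the melanoma cells express, was lower (-0.54).

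Of 14 tested genes of mature dendritic cells, 8 were higher in sgArid1a tumors and 2 lower. The costimulatory genes Cd83 and Cd86 rose by 1.16 and 0.73 and the chemokine Ccl22 by 0.64 on the log2 scale. The actin-bundling gene Fscn1 (-0.79) and the calcium channel subunit Cacnb3 (-0.61) were lower, and both are expressed in B16F10 cultures, with 1637 and 1141 counts for Fscn1 and 628 and 424 for Cacnb3 with DMSO. Of 5 tested growth factors and attractants, 4 were higher: Flt3l, the ligand of Flt3, by 0.55, Ccl5 by 0.71, Csf1 by 0.25 and Ccl4 by 0.23. In B16F10 cultures with DMSO, Flt3l had 62 and 26 counts, Ccl5 56 and 25, and Csf1 394 and 213, while Ccl4 had 0 and 0. Xcl1, the ligand of Xcr1, was too low to test, with 3.83 and 3.87 in sgArid1a tumors, against 3.60 and 3.61 in sgScramble tumors. Of 7 tested factors of dendritic cell development, 5 were higher, including Ikzf1 (0.71) and Spi1 (0.65), and Id2 (-0.54) and Zeb2 (-0.60) were lower. Both lower genes are expressed in B16F10 cultures, with 4111 and 2868 counts for Id2 and 8039 and 5595 for Zeb2 with DMSO. Of the 5 higher genes, 4 also had more than 1 count in a DMSO culture. Of 8 genes of plasmacytoid dendritic cells, 3 could be tested and 2 were higher. One of these was Cox6a2 (1.27), which skeletal muscle also makes, and the defining Siglech was too low to test.

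**Figure D5:**
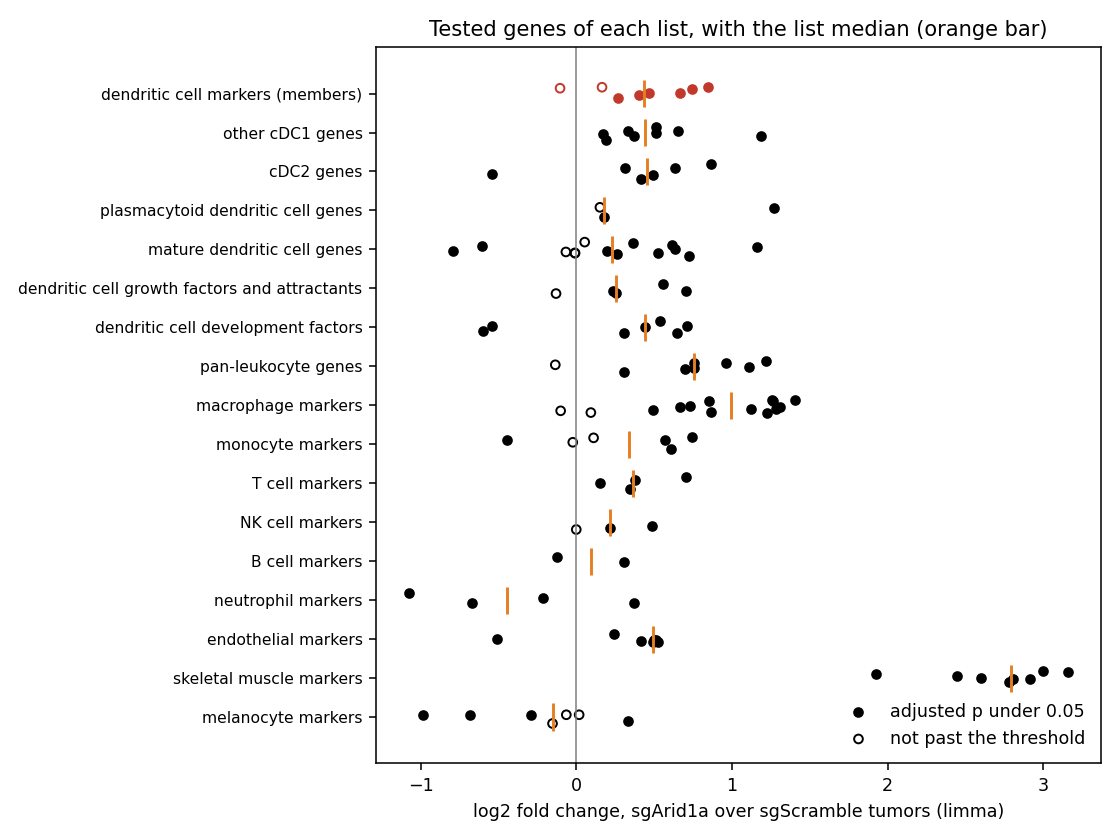
Log2 fold change, sgArid1a over sgScramble tumors (horizontal axis, limma), of the tested genes of each list (rows), with the 8 markers in the top row in red, filled where the adjusted p was under 0.05, and the list median as an orange bar. The median was 0.43 for the markers, 0.99 for macrophage markers and 2.79 for skeletal muscle markers.

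Markers of other cells moved between the same tumors. Of 14 macrophage markers, 12 were higher and 0 lower, with a median log2 fold change of 0.99 (1.27 in the authors' deposited table). The log2 of their summed level was 14.54 and 14.58 in sgArid1a tumors, against 13.55 and 13.46 in sgScramble tumors. Of 8 genes of leukocytes at large, 7 were higher with a median of 0.76, led by Ptprc, the common leukocyte antigen CD45, at 1.22. The 4 testable T cell markers of 8 in the table were higher, with a summed level (log2) of 7.35 and 7.33 in sgArid1a tumors, against 6.96 and 6.97 in sgScramble tumors, while Cd3d and Cd3e were among those too low to test. Skeletal muscle markers were higher for 8 of 8 genes with a median of 2.79, and their summed level (log2) was 13.53 and 13.52 in sgArid1a tumors, against 10.72 and 10.65 in sgScramble tumors. Of 7 endothelial markers 6 were higher and 1 lower, of 6 monocyte markers 3 were higher and 1 lower, and of 3 tested NK cell markers 2 were higher. Of 4 tested neutrophil markers 1 was higher and 3 lower (median -0.44), of 7 melanocyte markers 1 was higher and 3 lower (median -0.15), and of 2 tested B cell markers 1 was higher and 1 lower. The B cell factor Pax5 was too low to test. The part of these other cells in the differences of the dendritic cell markers, and of the further dendritic cell genes, was not tested. This includes Itgax, Ccr7 and Zbtb46, which such cells can also express.

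The markers were set against the 8 leukocyte genes in each tumor by subtracting their mean log2 value, which was 10.27 and 10.30 in sgArid1a tumors, against 9.58 and 9.58 in sgScramble tumors. Wdfy4 then had -2.65 and -2.62 in sgArid1a tumors, against -2.77 and -2.78 in sgScramble tumors, a difference of 0.14. The groups overlapped for Ccr7 (a difference of 0.03) and Itgax (-0.04). Flt3 (-0.24), Clec9a (-0.31), Xcr1 (-0.44), Batf3 (-0.54) and Zbtb46 (-0.81) were lower in both sgArid1a tumors relative to the leukocyte genes. The median log2 fold change of all genes tested was -0.02, so a gene without a difference also comes out lower after this subtraction. The share of all genes that did so was not counted. The drawing together of low values weighs more on Xcr1, Clec9a and Flt3 than on the leukocyte genes, so these differences are values only and were given no test. Cultured melanoma cells express Batf3 (20 and 13 counts with DMSO) and Zbtb46 (120 and 68). The values of Batf3 and Zbtb46 can thus include melanoma RNA, and that share was not tested. Of the 8 leukocyte genes, Arhgdib had the most counts in the melanoma cells, 13072 and 7320 with DMSO. Lcp1 had 64 and 52 counts there, Coro1a 16 and 21, and Laptm5 4 and 2. An alternative chosen after seeing the data left out Arhgdib only, so the other genes with reads in culture stayed in the mean. Wdfy4 then had -2.14 and -2.11 in sgArid1a tumors, against -2.12 and -2.17 in sgScramble tumors. Its groups overlapped (a difference of 0.02). The differences of Ccr7 and Itgax were then -0.09 and -0.17, with both sgArid1a values lower. The direction also depends on the scale: in the authors' deposited table the median log2 fold change of the 8 leukocyte genes was 1.001 and the highest 1.56, below those of Flt3 (2.16), Clec9a (2.05), Xcr1 (1.68) and Ccr7 (1.62).

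The tested genes whose centred log2 values over the 4 tumors were closest to the mean pattern of the 8 markers were Tspan2, Ccdc155, Tmem57, Dst and Rnf135, with root mean square differences of 0.0042 to 0.0101. There were 453 genes within 0.05, so 4 libraries single out few genes by pattern.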

How the data were processed

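PolyA RNA was sequenced. The submitters' processing notes name STAR 2.5.3a, HOMER and the builds GRCm38 and mm10. The file headers state no strand option, so a value can include antisense reads that overlap the gene. The authors deposited normalized log2 values in 7 gene tables used here and raw exon counts in the BD98 table, per the file headers. The log2 values draw low values together. Fold changes and p-values of the authors' deposited table are named as theirs. The values of 2 columns of the gene tables that belong to no sample here, and the total RNA table of repeats, were not used. For tumors the design had named limma for log2 values and edgeR for counts. The log2 values were tested with limma 3.58.1 (limma-trend, mean log2 of at least 4), in R 4.3.3. Counts were tested with edgeR 4.0.16 (TMM, filterByExpr, quasi-likelihood), a test added after the values were seen, and DESeq2 1.42.0 as an alternative. P-values were adjusted over all tested genes by the Benjamini-Hochberg method. Assigned counts in the BD98 table were 13053471 to 23652618 a library. Groups came from the sample labels. All 8 members were named. Of other lists, up to 4 tested genes with the smallest p and untested defining markers were named, and Cacnb3 and Irf1 were added after their values were seen. Likeness was the root mean square difference of centred values. The members and lists were chosen with earlier results of these data known. The scripts were tested on simulated data.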

Additional observations from a re-analysis of the deposited data

Results flagged for a closer look

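Batf3 values had opposite signs in tumors and in the DMSO cultures. In tumors both sgArid1a values lay above both sgScramble values (a difference of 0.16 on the log2 scale), and in the DMSO cultures both sgArid1a values lay below both sgScramble values (-0.055). The tumor separation was shared by 36.2% of all genes tested, and the share for the DMSO cultures was not counted. In untreated cultures the sign was that of the tumors, with 3.99 and 3.97 in sgArid1a cells, against 3.83 and 3.95 in sgScramble cells. Neither the tumor nor the DMSO difference passed the limma test, and the difference between tumors and DMSO cultures was not tested.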

How the results depend on the processing

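Wdfy4, Ccr7, Itgax, Flt3, Clec9a and Xcr1 were called higher in sgArid1a tumors under each alternative in which they were tested (11 or 12 each). No log2 fold change of a marker in tumors changed sign. When tested genes had to average at least 6 on the log2 scale, the number of markers called higher was 3, because fewer were tested. With quantile normalization 1 marker was called lower, Zbtb46 (-0.26, limma, adjusted p = 0.0236). Batf3 ranged over its alternatives from 0.045 to 0.446, with adjusted p from 0.0236 to 0.585, the highest fold being that of the authors' deposited table. It was called with median centring (0.17, limma, adjusted p = 0.0433) and without sgArid1a replicate 1 (0.23, limma, adjusted p = 0.0284). The number of markers called with BD98 was 1 in place of 2 with DESeq2, and 1 to 2 when a library was left out; where a group had 1 library left, it was assumed to vary like the others. Replicate numbers did not pair the libraries: deviations of same-numbered tumors correlated at -0.51, those of untreated cultures at -0.381 and of DMSO cultures at -0.07. The -0.51 means that tumors of opposite number deviated alike. The main fit did not model this, and its source was not tested. With a replicate block, 6 markers were still higher and 0 lower in sgArid1a tumors, and the number of genes called was 6308, against 7509 without it. With the crossed replicate block, chosen after seeing the data as were all alternatives for BD98, 7 markers and 9670 genes were called, Batf3 being the seventh. Scaling moved the median of all tested genes by under 0.1. The share of higher calls was 48.1% as deposited, 45.2% with quantile normalization and 49.6% with median centring. Relative to the leukocyte genes, all 8 differences moved by more than the spread between libraries when Arhgdib was left out. The same reference is subtracted from each marker, so all 8 moved by the same amount and are not separate results. The difference of Ccr7 changed sign when Arhgdib was left out, from 0.03 to -0.09. What depth limits was not measured for the tumor values, which come without counts.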

Other observations

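The markers were also read in MC38 colon carcinoma cells and in mouse embryonic fibroblasts (MEFs), cultures with no dendritic cells in their labels. Clec9a had log2 values of 2.91 and 2.91 in sgArid1a MC38 cells, against 2.89 and 2.89 in sgScramble MC38 cells. Wdfy4 lay within 2.17 to 2.18 in the 4 MC38 libraries, while Flt3 and Itgax were listed at 0 there. Xcr1 had 1.94 and 1.96 in Arid1a -/- MEFs 5 days after tamoxifen, against 1.94 and 1.98 in WT MEFs, from Arid1a fl/fl cells 5 days after ethanol. Batf3 lay within 4.37 to 4.40 in MC38 cells and 4.13 to 4.16 in MEFs, and Zbtb46 within 6.09 to 6.11 and 4.21 to 4.29. These tables were normalized separately, and the values were given no test.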
